A study of Mus musculus with 10 samples.

Results

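The 9 genes described here encode receptors through which myeloid cells, the macrophages, monocytes, neutrophils and dendritic cells, sense microbes and the debris of dying cells. They are Clec4d, Clec4e, Clec4n and Clec7a, which encode C-type lectin receptors, Olr1 and Msr1, which encode scavenger receptors, Trem1, which encodes an amplifying receptor of the immunoglobulin superfamily, and Fpr1 and Fpr2, which encode formyl peptide receptors. They were named as a list with their levels in these livers after CD95-Ab already known, and are 9 of the 38922 genes in the deposited tables. Each was found by its Ensembl identifier through GENCODE mouse release 21, and each was among the 13719 genes with enough counts to be tested. Because the list was drawn from the comparison of CD95-Ab with saline, the levels and fold changes of the 9 receptors are given as a description and without a test.

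Livers came from wild-type C57BL/6N mice, an inbred strain, all male and aged 6 weeks. In 5 mice, CD95-Ab, an antibody that activates the death receptor CD95 (Fas) and drives hepatocytes into apoptosis, was injected intraperitoneally at 0.5 µg/g of body weight. The other 5 mice received the same volume of saline, and all 10 livers were taken 6 h later for RNA sequencing, with 1 library per mouse. The model holds 1 strain, 1 sex, 1 dose and 1 time, and the RNA is that of whole liver rather than of isolated cells. The total of expected counts ran from 25965699 to 62097636 after saline and from 27480796 to 44962196 after CD95-Ab. The labelled tissue was borne out by its markers, since the transcript of albumin (Alb) stood at 76110 to 98010 CPM after saline and at 30490 to 60940 CPM after CD95-Ab. Here CPM stands for counts after scaling each liver to 1000000, with totals adjusted by the trimmed mean of M-values.

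C-type lectin receptors of this group recognise sugars and glycolipids. Clec4d, Clec4e and Clec4n signal through the Fc receptor gamma chain (Fcer1g), whereas Clec7a carries a signalling motif in its own tail, and both routes pass through the kinase Syk and the adaptor Card9 to NF-kB. Trem1 signals through the adaptor Tyrobp (DAP12) and Syk and amplifies responses started by other receptors. The scavenger receptors bind modified lipoproteins and other polyanionic debris, and the formyl peptide receptors are G protein-coupled receptors that guide phagocytes towards peptides of bacteria and of damaged mitochondria. In liver, resident macrophages (Kupffer cells) and incoming neutrophils and monocytes are the cells best known for carrying them.

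The genes lie in 5 stretches of the mouse genome (GENCODE positions on GRCm38). Clec4n (chr6:123229843-123247021, forward strand), Clec4d (chr6:123262111-123275265, forward) and Clec4e (chr6:123281789-123289870, reverse) follow each other on chromosome 6. Within the 60028 bp from the start of Clec4n to the end of Clec4e, no other gene of the tables lies between them. Clec7a (chr6:129461591-129472779, reverse) and Olr1 (chr6:129485244-129507165, reverse) are neighbours 12464 bp apart in a second lectin cluster of the same chromosome. Fpr1 (chr17:17876471-17883940, reverse) and Fpr2 (chr17:17887824-17893952, forward) are 3883 bp apart on chromosome 17, and Trem1 lies far from them on the same chromosome (chr17:48232768-48246924, forward). Msr1 stands alone (chr8:39581685-39642673, reverse).

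For 7 of the 9 receptors, all but Clec4n and Msr1, the 250 bases before the transcript start were read from the RefSeq promoter table of GRCm38.p6. The promoters of the 4 receptors that were nearly silent after saline are shown, because these are the genes whose levels differed most between the groups. Each is written 5′ to 3′ on the strand of its gene and ends at the base before the start. Capitals mark matches, on either strand, to 4 motifs of factors known to act on myeloid genes.
Clec4d: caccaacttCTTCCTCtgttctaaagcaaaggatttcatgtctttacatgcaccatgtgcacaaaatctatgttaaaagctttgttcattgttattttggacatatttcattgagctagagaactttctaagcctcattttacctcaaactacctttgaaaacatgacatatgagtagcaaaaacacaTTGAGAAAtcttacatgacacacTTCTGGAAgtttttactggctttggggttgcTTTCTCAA
Clec4e: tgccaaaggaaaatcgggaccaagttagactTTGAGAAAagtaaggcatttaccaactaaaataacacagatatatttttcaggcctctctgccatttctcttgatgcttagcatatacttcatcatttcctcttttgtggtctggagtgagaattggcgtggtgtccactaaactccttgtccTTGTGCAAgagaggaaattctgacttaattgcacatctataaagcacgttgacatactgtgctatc
Olr1: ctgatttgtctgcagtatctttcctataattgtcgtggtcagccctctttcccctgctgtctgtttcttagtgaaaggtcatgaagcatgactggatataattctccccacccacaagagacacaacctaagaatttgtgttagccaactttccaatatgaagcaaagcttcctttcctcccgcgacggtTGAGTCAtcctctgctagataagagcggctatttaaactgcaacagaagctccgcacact
Trem1: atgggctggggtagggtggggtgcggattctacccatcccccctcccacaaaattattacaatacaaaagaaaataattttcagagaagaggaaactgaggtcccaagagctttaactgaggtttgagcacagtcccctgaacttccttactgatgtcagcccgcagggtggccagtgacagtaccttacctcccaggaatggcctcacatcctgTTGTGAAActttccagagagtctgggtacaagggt
These windows are Clec4d at chr6:123261857-123262106 (forward), Clec4e at chr6:123289872-123290121 (reverse), Olr1 at chr6:129507166-129507415 (reverse) and Trem1 at chr17:48232489-48232738 (forward). The letters searched were GAGGAAG for PU.1, GGG, 3 free bases and TTCC for NF-kB, TGANTCA for AP-1 and TTNNGNAA for C/EBP factors. In the Clec4d window, the C/EBP letters matched 3 times, the nearest match ending at the base next to the start, and the PU.1 letters matched once, 241 to 235 bases before it. The Clec4e window held 2 C/EBP matches and the Trem1 window 1, 35 to 28 bases before the start. The Olr1 window held 1 AP-1 match, TGAGTCA, 60 to 54 bases before the start, and no C/EBP match. Of the windows not printed, Fpr1 held 3 C/EBP matches and Fpr2 held 2, and the 2 RefSeq starts of Clec7a held no match to any of the 4 motifs.

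Counted over genes, C/EBP letters were present for 5 of 7 receptors, PU.1 letters for 1, AP-1 letters for 1 and NF-kB letters for 0. Among all 32851 mouse promoter windows of the same length, the shares with a match were 36.8% for C/EBP, 10.6% for PU.1, 6.75% for AP-1 and 4.65% for NF-kB. A match describes letters only, and its absence says nothing of binding elsewhere.

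All 9 receptors had more transcript after CD95-Ab, and in each case the lowest CD95-Ab liver lay above the highest saline liver. Over all tested genes the same separation held for 18.6%. By the quasi-likelihood test of edgeR with Benjamini-Hochberg adjustment at a false discovery rate (FDR) of 0.05 or less, 47.3% of all tested genes were called in either direction, 25.4% were called higher, and 6.59% were called higher with a log2 fold change of 2 or more. Their median log2 fold change was 3.78, against 0.01 over all tested genes. In whole liver, more cells of a type and more RNA of a gene per cell cannot be told apart. The receptors fell into a class of 4 with fewer than 10 counts in at least 4 of the saline-injected mice, which entered the tested set through the CD95-Ab group alone, and a class of 5 with at least 10 counts in every mouse.

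**Figure D1:**
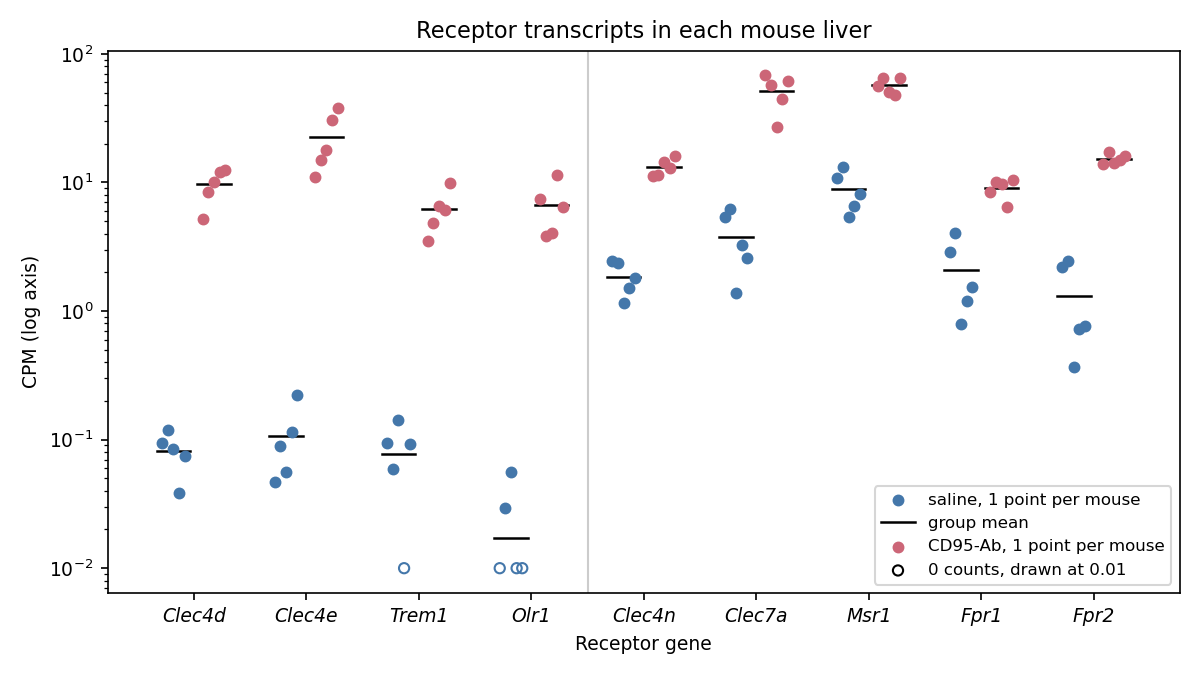
CPM of the 9 receptor transcripts in each liver on a log axis, saline in blue and CD95-Ab in red, with 1 point per mouse, replicates 1 to 5 from left to right, and a bar at the group mean. The 4 receptors left of the grey line were at 0.222 CPM or less in every saline-injected mouse, open points mark 0 counts, and no receptor has overlapping groups.

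The largest differences were in the class that was nearly silent after saline. Clec4e encodes Mincle, a receptor for mycobacterial glycolipid and for the nuclear protein Sap130 released by dying cells. It had 2, 3, 2, 3 and 12 counts in saline-injected mice 1 to 5, or 0.0470, 0.0889, 0.0563, 0.115 and 0.222 CPM. After CD95-Ab it stood at 11.0, 15.02, 17.7, 30.7 and 37.9 CPM. The saline value of mouse 5 was the highest of its group and still 49.5 times below the lowest CD95-Ab value. The means were 0.106 ± 0.0705 and 22.5 ± 11.3 CPM (SD, n = 5), which is a log2 fold change of 7.60 (SE 0.49). The ratio of pooled CPM was 206 (95% interval 136 to 330 from the exact binomial method, which covers counting error only).

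Clec4d encodes the partner lectin of Mincle, MCL. Its saline counts were 4, 4, 3, 1 and 4, or 0.0940, 0.119, 0.0845, 0.0385 and 0.0741 CPM. After CD95-Ab it reached 5.23, 8.40, 10.1, 12.0 and 12.4 CPM. Mice 4 and 5 were highest and mouse 1 lowest, the same ends as for Clec4e, its neighbour 6523 bp away on the opposite strand. The means were 0.0819 ± 0.0293 and 9.64 ± 2.94 CPM (SD, n = 5), with a log2 fold change of 6.79 (SE 0.33) and a pooled ratio of 117 (71.9 to 205).

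Trem1 had 4, 2, 5, 0 and 5 counts after saline, at most 0.141 CPM. After CD95-Ab it stood at 3.496, 4.84, 6.53, 6.13 and 9.98 CPM, so mouse 5 was again highest and mouse 1 again lowest. The mean went from 0.0774 ± 0.0521 to 6.19 ± 2.43 CPM (SD, n = 5), with a log2 fold change of 6.18 (SE 0.44) and a pooled ratio of 78.1 (47.9 to 137).

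Olr1 encodes LOX-1, a receptor for oxidised low-density lipoprotein that endothelial cells carry as well as macrophages. Only 3 counts were found after saline, 1 in mouse 2 and 2 in mouse 3, and 3 of the 5 saline-injected mice had 0. After CD95-Ab it had 230, 120, 101, 285 and 291 counts, or 7.38, 3.82, 4.02, 11.5 and 6.44 CPM. Here mouse 4 was highest and mouse 2 lowest, an order unlike that of the 3 genes before it. The 3 saline counts against 1027 counts after CD95-Ab gave a pooled ratio of 416 with a wide interval of 142 to 2022. The fitted log2 fold change of 8.42 (SE 0.60) depends on how so few counts are handled. It became 9.36 without saline replicate 3, and 6.51 with a prior count of 2 in place of the default. With that larger prior count the value of Clec4d became 6.11 and that of Trem1 5.49.

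The 5 receptors with counts in every saline-injected mouse showed smaller ratios and higher levels. Clec7a encodes Dectin-1, the receptor for beta-glucans of fungi. After saline its level was 5.41, 6.16, 1.38, 3.27 and 2.58 CPM, and after CD95-Ab 68.0, 57.6, 26.9, 44.2 and 61.0 CPM. The lowest CD95-Ab value, in mouse 3, was 4.37 times the highest saline value, in mouse 2. The means were 3.76 ± 1.99 and 51.6 ± 16.3 CPM (SD, n = 5), with a log2 fold change of 3.78 (SE 0.39). GENCODE lists this gene as a polymorphic pseudogene, a class for loci that are intact in some strains.

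Clec4n encodes Dectin-2, a receptor for mannans. Its values were 2.45, 2.37, 1.15, 1.5 and 1.80 CPM after saline and 11.2, 11.5, 14.4, 12.9 and 15.9 CPM after CD95-Ab. Both groups were narrow, with the highest mouse 2.12 times the lowest after saline and 1.42 times after CD95-Ab. The log2 fold change was 2.82 (SE 0.21), from 1.85 ± 0.555 to 13.2 ± 2.00 CPM (SD, n = 5). Thus the first gene of the Clec4n, Clec4d and Clec4e row had transcript in every saline liver, while the 2 that follow it were close to 0.

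Msr1 encodes scavenger receptor A, a receptor of resident macrophages. It was read at 10.9, 13.3, 5.41, 6.50 and 8.06 CPM after saline and at 56.6, 65.4, 50.2, 48.0 and 64.8 CPM after CD95-Ab. Saline replicate 3 was the lowest of its group and replicate 2 the highest, as for Clec7a. The means were 8.83 ± 3.24 and 57.0 ± 8.06 CPM (SD, n = 5), which is a log2 fold change of 2.69 (SE 0.23).

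Fpr2, which responds to a broad set of peptides and to serum amyloid A, stood at 2.21, 2.43, 0.366, 0.731 and 0.760 CPM after saline and at 13.8, 17.4, 14.2, 15.01 and 16.1 CPM after CD95-Ab. Among the 5 receptors with counts in every saline liver it was the most uneven after saline, where the highest mouse was 6.64 times the lowest, and among all 9 it was the most even after CD95-Ab, where this ratio was 1.26. The means were 1.299 ± 0.948 and 15.3 ± 1.46 CPM (SD, n = 5), which is a log2 fold change of 3.55 (SE 0.42). Fpr3 is annotated over the same stretch and strand (chr17:17887852-17971677), so reads shared by both were divided by the counting program and the split is uncertain. Fpr3 had too few counts to be tested, with at most 27 in any mouse.

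Fpr1, the classical receptor for formylated peptides, had the smallest difference of the 9. It stood at 2.87, 4.06, 0.789, 1.19 and 1.54 CPM after saline and at 8.44, 10.2, 9.71, 6.41 and 10.4 CPM after CD95-Ab. Its groups came closest to meeting, because the lowest CD95-Ab mouse, replicate 4, was only 1.58 times the highest saline mouse, replicate 2. The means were 2.09 ± 1.35 and 9.03 ± 1.65 CPM (SD, n = 5), which is a log2 fold change of 2.11 (SE 0.37) that lies just inside the threshold of 2. It fell under 2 without saline replicate 3 (1.90), without saline replicate 4 (1.94), without saline replicate 5 (1.999) and with unadjusted library totals (1.99).

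Levels of different receptors can be set side by side only per transcript length, for which the deposited FPKM (fragments per kilobase of transcript, scaled to the library) were used. After saline the order by mean FPKM was Msr1 at 2.92 ± 1.33, Clec7a at 2.15 ± 1.36, Fpr1 at 1.77 ± 1.29, Clec4n at 1.69 ± 0.625 and Fpr2 at 1.48 ± 1.18 (SD, n = 5). The ranges of neighbours in this order overlapped. The other 4 were at 0.068 FPKM or below, with a gap between Fpr2 and Clec4d that no mouse bridged. After CD95-Ab, Clec7a led at 26.7 ± 11.9 FPKM, followed by Msr1 at 16.9 ± 4.06 and Fpr2 at 15.6 ± 2.03. Clec4n stood at 11.2 ± 1.69, Clec4e at 8.70 ± 3.94, Clec4d at 7.20 ± 1.88 and Fpr1 at 6.99 ± 1.61 FPKM, each again overlapping its neighbours in range. Clec4e and Clec4d thus moved from below Fpr1 to values that overlapped it. Trem1 at 2.06 ± 0.830 and Olr1 at 1.84 ± 0.751 FPKM were the lowest after CD95-Ab, and neither reached the range of Fpr1.

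Within each group, certain mice ranked high or low for several receptors. After saline, replicates 1 and 2 were the highest pair for 5 of 5 receptors of the measurable class, and replicate 3 was the lowest for all 5. The adaptor transcripts Fcer1g and Tyrobp were also highest in replicate 2 (13.3 and 14.6 CPM) and lowest in replicate 3 (4.08 and 3.60 CPM). The summed level of 11 Kupffer cell and macrophage markers was 636 CPM in replicate 2 and 192 CPM in replicate 3, the ends of its saline range too. After CD95-Ab, replicate 5 was highest for 5 of the 9 receptors and among the top 2 for 8, and replicate 1 was lowest for 5. Replicate 5 was also the deepest library of its group. The sums of neutrophil markers in CD95-Ab replicates 1 to 5 were 114.3, 283.9, 479.4, 299.1 and 372.6 CPM. The lowest sum was thus in replicate 1. The largest was in replicate 3, which was highest for 0 of 9 receptors. The part of cell composition or depth in these orders was not tested, and 5 mice per group are too few for a correlation.

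**Figure D2:**
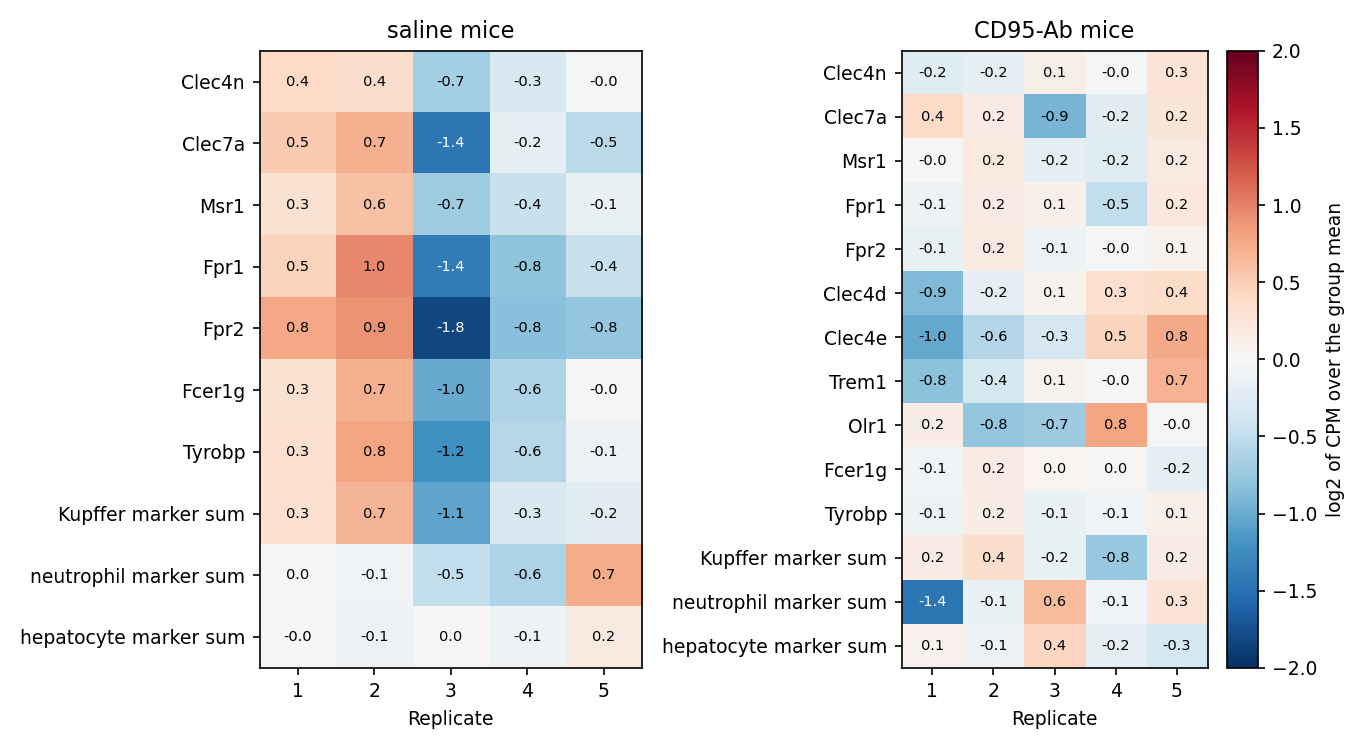
Log2 of CPM over the group mean in each liver, saline on the left and CD95-Ab on the right, for receptors, the adaptors Fcer1g and Tyrobp and sums of marker genes, with red above and blue below the group mean. Saline replicates 1 and 2 are red and replicate 3 is blue for each receptor shown, and after CD95-Ab the colours of Clec4d, Clec4e and Trem1 run from blue in replicate 1 to red in replicate 5 while Fpr2 and Msr1 stay pale.

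Receptor levels were also read against an adaptor of the same liver, a choice made after the values were seen. Such a ratio of CPM compares mice, not the levels of genes. The share of all tested genes whose ratio to an adaptor separates the groups was not counted. As the receptors were chosen on this contrast, separate ratios are a description only. Clec4n over Fcer1g ran from 0.178 to 0.283 after saline and from 0.318 to 0.557 after CD95-Ab, so the groups did not overlap but the medians differed by only 1.61 times. Clec4d over Fcer1g ran from 0.00725 to 0.0207 and then from 0.169 to 0.435. For Clec4e over Fcer1g the ranges were 0.00468 to 0.0275 and 0.356 to 1.33. These lectins therefore stood far higher against their adaptor after CD95-Ab, with medians 33.6 and 39.0 times those of saline.

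Trem1 over Tyrobp was at most 0.0391 after saline and at least 0.147 after CD95-Ab. With Tyrobp as a transcript of myeloid cells at large, the medians were 4.78 times higher for Clec7a, 4.73 times for Fpr2 and 2.23 times for Msr1, and none of these 3 ratios overlapped between groups. Fpr1 was the exception. Its ratio to Tyrobp ran from 0.196 to 0.279 after saline and from 0.260 to 0.415 after CD95-Ab, so the groups overlapped and 4 of 5 CD95-Ab mice lay above all saline mice. Its ratio to Fcer1g overlapped more, from 0.190 to 0.304 against 0.196 to 0.365, with 1 of 5 mice above. For the receptors with counts in every mouse, the highest saline liver over the lowest was smaller in these ratios, for Fpr1 5.15 times in CPM and 1.42 times over Tyrobp and for Fpr2 6.64 and 2.16 times. For Clec4e, with few counts after saline, it was larger, at 4.73 times in CPM and 5.86 times over Fcer1g.

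**Figure D3:**
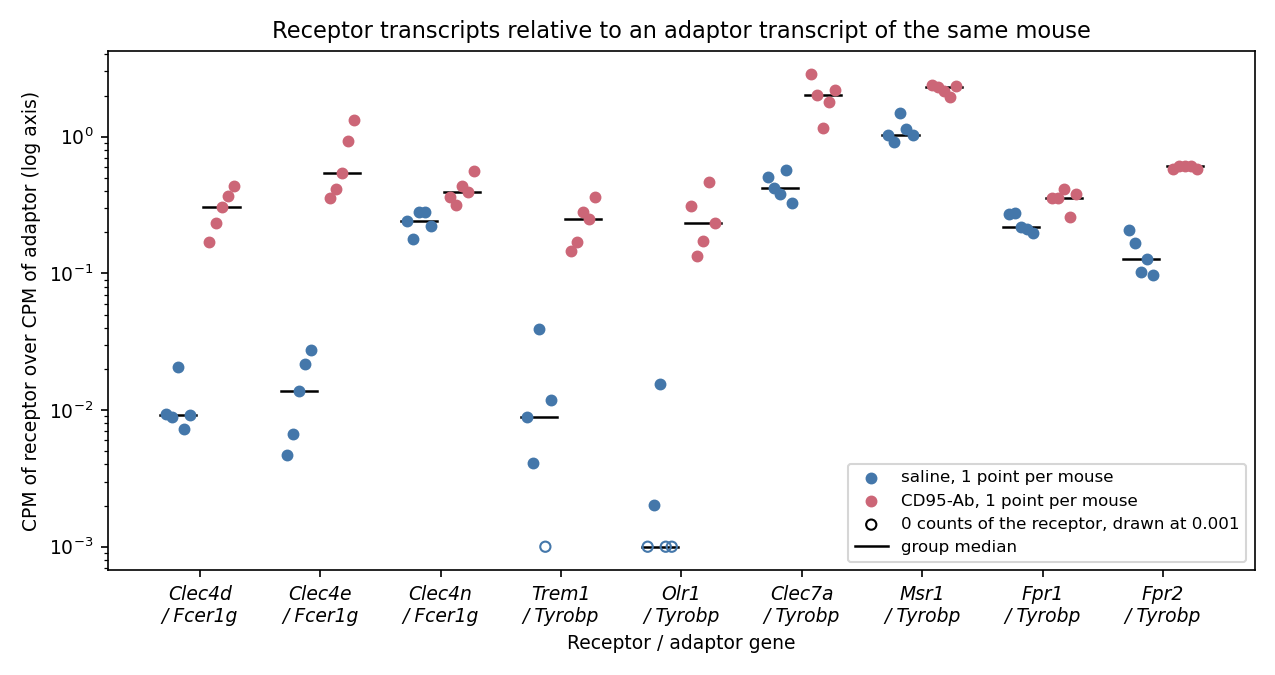
CPM of each receptor divided by CPM of an adaptor transcript of the same liver, on a log axis, Fcer1g for the first 3 lectins and Tyrobp for the others, with 1 point per mouse and a bar at the group median. Only the Fpr1 ratio has overlapping groups, with medians of 0.219 after saline and 0.356 after CD95-Ab.

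The genes that act in the signal path of these receptors were mostly higher as well. Of 19 genes for adaptors, kinases, phosphatases and the Card9 complex, 18 were tested, 17 rose and 0 fell at an FDR of 0.05 or less, with a median log2 fold change of 1.83. Some of the phosphatases damp the signal, so the 17 are not all genes that pass it on. The Src family kinase gene Fgr rose by 3.20 (SE 0.30, FDR 7.33e-06) on the log2 scale. Syk, the kinase on which the lectins and Trem1 converge, rose from 4.73 ± 1.64 to 22.2 ± 4.26 CPM (SD, n = 5), by 2.23 on the log2 scale (edgeR FDR 2.67e-05). Card9 rose by 2.08 (edgeR FDR 3.60e-04). The adaptors themselves rose as well, Fcer1g from 8.17 ± 3.71 to 32.3 ± 2.76 CPM (SD, n = 5; log2 fold change 1.98, edgeR FDR 1.10e-04) and Tyrobp from 8.46 ± 4.29 to 25.6 ± 2.31 CPM (log2 fold change 1.60, edgeR FDR 9.88e-04). The phosphatase gene Ptpn11 did not pass, at a log2 fold change of 0.37 (FDR 0.227), and the adaptor gene Hcst had too few counts to be tested.

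Among 16 cytokine, chemokine and feedback genes known to be induced through these receptors, 12 were tested and all 12 rose, with a median log2 fold change of 4.56. The chemokine genes Cxcl2, Ccl4 and Ccl3, which draw neutrophils and monocytes, rose by 8.55 (FDR 1.44e-06), 6.42 (FDR 2.11e-07) and 6.23 (FDR 7.00e-07), and Ptgs2, the inducible cyclooxygenase, by 6.66 (FDR 1.63e-05). Cxcl2 went from 0.119 ± 0.0776 to 43.1 ± 26.4 CPM (SD, n = 5). Il12b, Il23a, Csf2 and Csf3 had too few counts to be tested, and Csf3 was at 0 in every saline-injected mouse and at 0.0664 to 5.49 CPM after CD95-Ab. Many stimuli besides these receptors induce this list.

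Genes for endogenous ligands were divided. Of 14, 13 were tested, 7 rose, 3 fell and 3 did not pass. Over all tested genes, 25.4% were called higher and 22% lower. The acute-phase proteins that Fpr2 recognises rose strongly, Saa3 by 6.44 (FDR 1.92e-05), Saa2 by 4.42 (FDR 1.47e-03) and Saa1 by 3.35 (FDR 1.76e-03) on the log2 scale. Pglyrp1, a ligand of Trem1 made by neutrophils, rose by 4.61 (FDR 2.27e-06), from at most 0.165 CPM after saline to between 1.70 and 4.38 CPM after CD95-Ab. The 3 that fell were Hspa1b by 0.89, Hmgb1 by 0.34 and the Mincle ligand gene Sap130 by 0.32, with FDR of 0.0475, 0.0394 and 0.0419, and each of these calls was lost under some alternatives. Lgals9, Hspd1 and Hspa1a were not called, and Camp was not tested. Release of Hmgb1 or Sap130 protein from dying cells is not read by RNA.

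Among 22 other C-type lectin genes, 16 were tested, 7 rose and 1 fell. Of all tested genes, 47.3% were called in either direction, 25.4% higher and 22% lower. Their median log2 fold change was 0.63. Clec5a, another lectin of neutrophils and monocytes that signals through Tyrobp, rose by 6.43 (FDR 1.66e-06), from 0.0513 ± 0.0409 to 4.79 ± 1.98 CPM (SD, n = 5). The next largest were Cd207 at 2.25 (FDR 4.22e-05), Clec12a at 1.89 (FDR 1.18e-03) and Clec4a2 at 1.52 (FDR 6.97e-03), and Clec2d fell by 1.32 (FDR 9.11e-04). Lectins of resident liver cells were divided. Clec4g of sinusoidal endothelium rose by 0.98 (FDR 6.87e-03), whereas the Kupffer cell lectin Clec4f was among the 8 not called and stood at 91.8 ± 32.4 and 98.3 ± 31.1 CPM (SD, n = 5; log2 fold change 0.10, edgeR FDR 0.801). Cd302 at 0.13 (FDR 0.474) and the mannose receptor Mrc1 at 0.20 (FDR 0.336) were not called either. Clec4a4, Clec4b1, Clec4b2, Clec12b, Cd209a and Mgl2 were not tested.

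Among 16 other scavenger receptor genes, 14 were tested, 8 rose and 1 fell, with a median of 0.96. Cxcl16 rose by 2.28 (FDR 9.41e-07) and Scara5 by 2.25 (FDR 7.96e-05). Marco, a relative of Msr1 on Kupffer cells, rose by 2.11 (FDR 4.07e-03) and Cd68 by 1.79 (FDR 4.69e-04). Msr1 itself was chosen on this contrast, so its value of 2.69 cannot be ranked against theirs, and the contrast between them was not tested. Cd163, the haemoglobin scavenger of macrophages, fell by 0.97 with an FDR of 0.0497, and lost this call in 8 of 15 alternatives. Scarb1, Scarb2 and Colec12 were not called, with log2 fold changes of 0.05, 0.04 and -0.02. Megf10 and Ager were not tested.

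Of 15 other genes of the TREM, CD300, PILR and SIRP families, 14 were tested, 13 rose and 0 fell, with a median of 1.70. Trem3, an activating receptor whose gene lies 852 bp from Trem1, rose by 4.87 (FDR 4.90e-06), Treml2 by 3.38 (FDR 4.40e-05), Cd300lb by 3.32 (FDR 5.16e-05) and Cd300lf by 2.90 (FDR 2.36e-05). Trem2, known for its role on lipid-laden macrophages, rose by 2.12 (FDR 2.57e-04). Cd300lg, which endothelial cells carry, was at -0.01 (FDR 0.984), and Treml1 was not tested.

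Among 15 other receptors for chemoattractants, 9 were tested and 8 rose, with a median of 3.26. Ccr1 rose by 5.64 (FDR 7.31e-07), the complement receptor C5ar1 by 5.17 (FDR 9.23e-08), Ptafr by 4.40 (FDR 9.41e-07) and the neutrophil chemokine receptor Cxcr2 by 3.64 (FDR 6.01e-06). C5ar2 was not called, at 0.48 (FDR 0.247). The formyl peptide receptor relatives Fpr-rs3, Fpr-rs4, Fpr-rs6 and Fpr-rs7 had no count in any mouse, and Fpr3 and Cxcr1 were not tested.

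Of 18 transcription factor genes, all tested, 14 rose and 3 fell. Fosl1, a partner in AP-1, rose by 6.69 (FDR 1.35e-06), and the NF-kB genes Relb and Nfkb2 by 3.84 (FDR 1.81e-06) and 3.30 (FDR 5.21e-07). Rel rose by 2.71 (FDR 3.19e-06). The C/EBP genes split, because Cebpd and Cebpb rose by 2.27 (FDR 3.55e-04) and 1.27 (FDR 5.37e-03), whereas Cebpa, abundant in hepatocytes, fell by 1.63 (FDR 7.82e-06) and Cebpe by 1.49 (FDR 3.06e-04). Spi1, which encodes PU.1, rose by 2.48 (FDR 1.88e-05). Fos was not called, at 1.55 (FDR 0.134), but passed with the replicate number as a block (FDR 0.00951) and without saline replicate 2 (FDR 0.00545). 

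**Figure D4:**
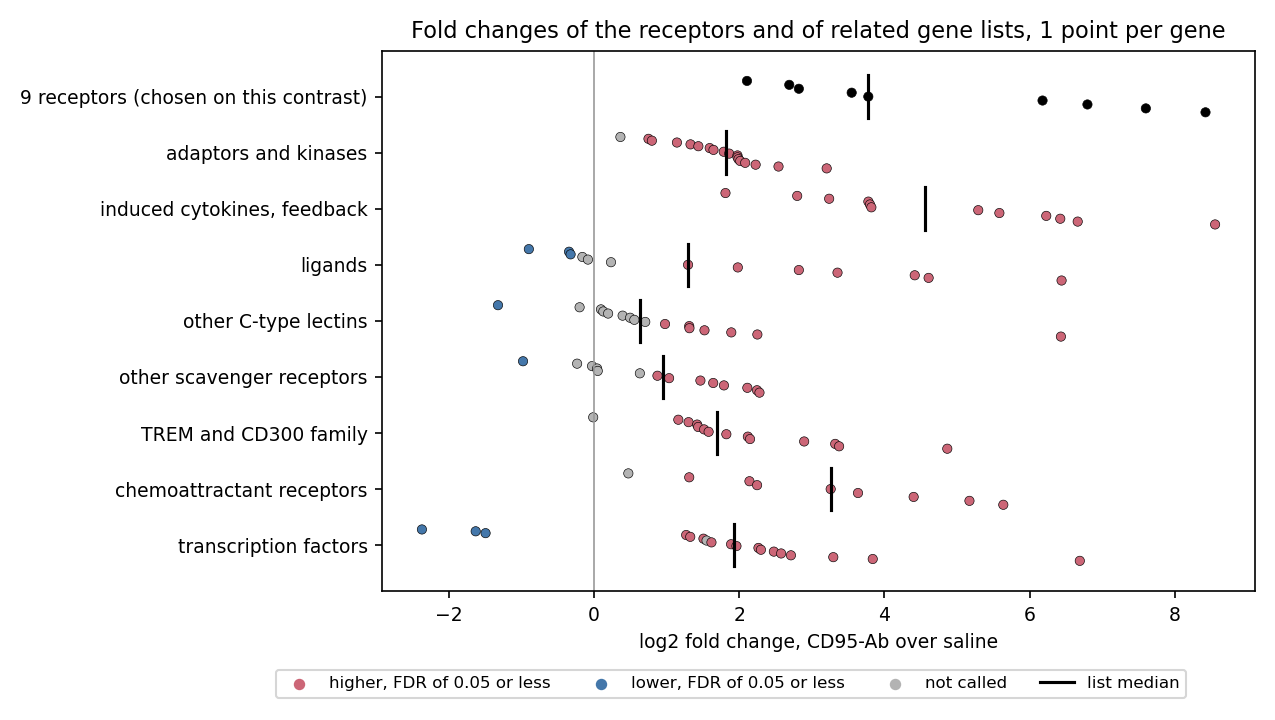
Log2 fold change of CD95-Ab over saline for each tested gene, 1 point per gene, in the 9 receptors and 8 lists of related genes, coloured by the call at an FDR of 0.05 or less, with a bar at the list median. The receptors, in black, have a median of 3.78, but they were chosen on this contrast, so it cannot be ranked against the lists. The other C-type lectins and scavenger receptors have medians of 0.63 and 0.96. The lists too were chosen with earlier results of these data known.

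The genes next to the receptors on their chromosomes did not all differ. Clec1a and Clec9a, on the other side of Clec7a from Olr1, were at log2 fold changes of 0.50 (FDR 0.264) and -0.20 (FDR 0.586). Beyond Olr1, Tmem52b had no count, and beyond Clec4e, Vmn2r19 had none. On the other side of Clec4n, Clec4b2 had at most 1 count. Around Trem1, Trem3, Treml4 at 1.52 (FDR 0.0102) and A530064D06Rik at 3.37 (FDR 2.00e-04) all rose, while beside Fpr1 the gene Spaca6 was at 0.16 (FDR 0.707) and Has1 was not tested. The nearest tested genes around Msr1 lay 416570 and 664784 bp away, Tusc3 at 0.00 (FDR 0.999) and Micu3 at 0.42 (FDR 0.128).

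Markers of the cells that may carry these receptors moved in the same comparison. Of 13 neutrophil markers, 8 rose and 5 were not tested, and their sum went from 4.54 to 11.6 CPM after saline to 114 to 479 CPM after CD95-Ab. The neutrophil surface marker Ly6g stayed between 0.0769 and 0.637 CPM over all mice, and the granule genes of immature neutrophils, Elane and Mpo, ran from 0 to 0.222 CPM after saline and from 0 to 1.51 CPM after CD95-Ab. All 8 monocyte markers rose, and without Fn1, which hepatocytes make, the sum of the other 7 went from 6.42 to 17.9 CPM to 87.0 to 171 CPM. Of 11 Kupffer cell and macrophage markers, 3 rose and 8 were not called, and their sums overlapped at 192 to 636 and 373 to 805 CPM. Over all tested genes, 25.4% were called higher.

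Of 7 dendritic cell markers, 3 rose, Itgax most at 3.71 (FDR 1.25e-05), and the sum went from 7.29 to 10.2 CPM to 16.7 to 24.5 CPM. Itgax alone went from 0.253 to 1.34 CPM after saline to 7.68 to 12.7 CPM after CD95-Ab. Clec9a at -0.20 (FDR 0.586), Xcr1 at 0.25 (FDR 0.627) and Zbtb46 at 0.38 (FDR 0.0798) were not called. Of 9 lymphocyte markers, 8 rose, within a low sum of 1.58 to 5.90 CPM after saline and 7.12 to 16.5 CPM after CD95-Ab. Of 6 markers of sinusoidal endothelium, 5 rose, with sums of 48.5 to 104 and 169 to 344 CPM. Of 7 hepatocyte markers, 3 were lower and 1, Fgb, was higher. Their sum, most of it Alb, went from 103100 to 126800 CPM after saline to 50860 to 87000 CPM after CD95-Ab. The part of each cell type in the receptor levels was not tested.

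The genes whose pattern over the 10 mice was most like that of each receptor were found by the root mean square (RMS) difference of log2 CPM after centring each gene on its mean. A value of 0 would mean the same pattern. Msr1 had the closest match of all, Cd53, a tetraspanin of leukocytes, at an RMS difference of 0.0970, followed by Hcls1 at 0.133. Clec4n was nearest to the cytoskeletal genes Msn at 0.169 and Flna at 0.186, and Fpr1 to Rac2 at 0.191 and Cgas at 0.196. Fpr2 was nearest to Gbp2b at 0.268 and Itgax at 0.297, and Clec7a to Cd300lb at 0.338 and Itgax at 0.347.

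The 4 receptors that were nearly silent after saline had their nearest genes at 0.319 or more, a range in which Clec7a at 0.338 lay too. Trem1 was nearest to Clec5a at 0.319 and Mrgpra2b at 0.382, and Clec4d to S100a9, a granule protein gene of neutrophils, at 0.375 and Gm26870 at 0.381. Clec4e was nearest to the endothelial selectin gene Sele at 0.559 and to S100a8 at 0.628. Olr1 was nearest to another receptor of the list, Clec4d, at 0.584, and to Gm26870 at 0.633. With a prior count of 0.5 in place of 2, both genes named for Clec4d and 1 each for Clec4e, Clec4n, Olr1 and Trem1 were replaced, Ccl2 then being nearest to Olr1. Between receptors the closest pairs were Clec4n with Msr1 at 0.217, Fpr1 with Msr1 at 0.362, Clec7a with Fpr2 at 0.386 and Clec4d with Trem1 at 0.447. Because the mice form 2 groups, genes with a like difference between them come out near each other, so no test was made.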

How the data were processed

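Liver RNA of 5 saline-injected mice and 5 mice injected with CD95-Ab was analysed, grouped by the sample labels. The authors used RSEM version 1.2.19 to place reads on genes, and their deposited tables give expected counts and FPKM. The deposited expected counts are whole numbers and unscaled, and the deposited FPKM take account of transcript length and library total. The mouse annotation and build used for that step are not given in the sources used here, so symbols and positions came from GENCODE mouse release 21 (GRCm38), which matched 37606 of 38922 identifiers. RSEM divides reads that fit several genes, so values of overlapping genes and close paralogs depend on it.

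After filterByExpr at a minimum count of 10 and TMM normalization, CD95-Ab was tested against saline by the quasi-likelihood method of edgeR 4.0.16 (R 4.3.3), with Benjamini-Hochberg adjustment over all 13719 genes. The threshold was an FDR of 0.05. SE values of log2 fold changes come from the F statistic. CPM used TMM-adjusted totals, and RMS differences used log2 CPM with a prior count of 2. At the unadjusted totals, 3 counts correspond to 0.0483 to 0.116 CPM. The code was tested on simulated data. Summaries used pandas 2.3.3 and scipy 1.17.1 in Python 3.11.15.

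The receptors and the gene lists were chosen with earlier results of these data known. In each list, the genes named were up to 4 with the largest change past the threshold, the 2 largest decreases, up to 3 of the most abundant that missed it, and those not tested. For each receptor the 2 nearest genes in pattern and the genes next to it on its chromosome were named as well. Fcer1g, Tyrobp, Trem2, Spi1, Cebpb, Cebpd, Cebpe and Clec4g fall outside this rule and were chosen after their values were seen, and some genes that meet it are not reported here. Alternatives were other normalization factors, DESeq2 1.42.0, no filter on low counts, larger or smaller prior counts, leaving out 1 mouse at a time, and a block for the replicate number.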

Additional observations from a re-analysis of the deposited data

Results flagged for a closer look

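For 25 measures (the receptors, their ratios to an adaptor and the marker sums), each group of 5 mice was searched for a mouse far from the other 4 by Dixon's criterion, with a critical value of 0.71 for the gap over the range. Of 50 groups, 3 held such a mouse, and chance alone gives about 5% of groups. None of the 9 receptors was flagged by its own CPM.

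The sum of monocyte markers was 996 CPM in CD95-Ab replicate 4, against 1914 to 2100 CPM in the other 4 mice of that group. Fn1 made up 909 CPM of it. The ratio of Clec4d to Fcer1g was 0.0207 in saline replicate 3, against 0.00725 to 0.00937 in the other saline-injected mice, and rests on 3 counts of Clec4d. The ratio of Olr1 to Tyrobp was 0.0156 in the same mouse, against 0 to 0.00203 in the others, and rests on 2 counts of Olr1. The CD95-Ab ratios of both receptors lay above these values in every mouse.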

How the results depend on the processing

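No receptor fold change was reversed in direction under any of the alternatives. The receptors were chosen on this contrast and their groups did not overlap. Leaving out 1 mouse could therefore hardly reverse a direction, and this is a description only. The direction of the list genes was not compared. Of 302 counts, of called genes or of shared nearest genes, 286 stayed within 1.5 times the value reported. These include the counts of called receptors, which were chosen on this contrast and were 9 higher and 0 lower each time. They also include lists in which 0 genes fell, so part of the 286 was settled beforehand. The fall in the ligand list was the least stable, with 3 genes reported lower, 1 with the replicate number as a block, and 0 to 2 when 1 mouse was left out, with 0 without saline replicate 5 or without CD95-Ab replicate 1, 2 or 5. The 1 scavenger receptor gene that fell, Cd163, was called 0 times with the replicate block and 0 to 1 times when 1 mouse was left out, the call being lost without saline replicate 2, 3, 4 or 5 and without CD95-Ab replicate 1, 2 or 4. Of 114 tested genes of the lists, 106 kept their call in every alternative. The 8 that did not were Sap130, Hmgb1, Hspa1b, Clec1b, Cd163, Scarf2, Cd300e and Fos. Cd300e, reported higher, lost its call in 7 of 15 alternatives, and Fos gained one with the replicate block (FDR 0.00951) and without saline replicate 2 (FDR 0.00545). The cause was not tested.

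Same-numbered mice of the groups did not deviate together (correlations -0.274 to 0.257, mean 0.0367, against -0.00622 for other numbers), and 2 mice of each group correlated best with their own number, so the numbers were not taken as pairs. The replicate block gave 5987 called genes in all against 6495. Without 1 mouse the number was 5616 to 6977, and with DESeq2 it was 6990. Of 144 alternative fold changes of the receptors, 140 moved by less than 1 SD, and the other 4 were those of Olr1, Clec4d and Trem1 with few counts. Here the SD is that of log2 CPM among mice, pooled over the 2 groups. Leaving out 1 mouse moves a group mean by only part of this SD, so the count of 140 is a description only. Of the 18 nearest genes named, 12 were shared with a prior count of 0.5 and 18 without the filter. Depth limits what can be said of the 4 receptors near 0 after saline, and FPKM are given to 2 decimals only.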

Other observations

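In saline livers the deposited FPKM and the expected counts of Clec4e did not order the mice alike. Replicate 5 had 12 counts and 0.05 FPKM, whereas replicate 2 had 3 counts and 0.10 FPKM, and replicates 1 and 3, with 2 counts each, had 0.02 and 0.01 FPKM. After CD95-Ab, both scales put replicate 5 highest and replicate 1 lowest for this gene.

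Clec7a and Olr1 are neighbours on the same strand, and their CD95-Ab values ordered the mice differently. Clec7a was highest in replicate 1 at 68.0 CPM and lowest in replicate 3 at 26.9 CPM, and Olr1 was highest in replicate 4 at 11.5 CPM and lowest in replicate 2 at 3.82 CPM.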
